A study of Mus musculus with 52 samples.

Results

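The data described here are the promoter accessibility measurements of Kdm2b-CXXC fl/fl mouse embryonic stem cells (mESCs) in which the zinc finger-CxxC (ZF-CxxC) domain of KDM2B was removed while its paralogue KDM2A was left intact. The assay was calibrated ATAC-seq (cATAC-seq), in which the Tn5 transposase cuts and tags open chromatin and Drosophila SG4 cells, added in a known proportion, give each library an outside reference. The libraries were chosen by their labels: 3 from untreated cells and 3 from cells given 800 nM 4-hydroxytamoxifen for 96 h, which are 6 of the 52 samples of the series and 6 of its 26 ATAC libraries. All 20633 promoter intervals of the table, each 400 bp long, were taken, and 17930 had enough reads to be tested.

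Untreated and treated cells carry the same floxed Kdm2b alleles and the same tamoxifen-inducible Cre recombinase, and were grown in serum with leukaemia inhibitory factor. In treated cells, Cre removes the exon that encodes the ZF-CxxC domain and the rest of the gene remains. The cells of each group are from a single conditional line, the libraries are labelled as biological replicates with nothing said of separate cultures, and the p-values therefore measure the spread between these libraries. Cells without floxed alleles given tamoxifen were not analysed here, so the effect of the drug and that of the deletion cannot be told apart. Promoter reads do not show whether the exon was lost. The labels give the floxed line and the treatment, and the loss of the domain is taken from the study, which examined KDM2B in this line by western blot.

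KDM2B binds unmethylated CpG dinucleotides through its ZF-CxxC domain and so occupies CpG islands, the CpG-dense and mostly unmethylated stretches at which most mammalian genes begin. It carries a JmjC domain that demethylates histone H3 at lysine 36, and it brings the PCGF1 form of Polycomb repressive complex 1 (PRC1), which ubiquitylates histone H2A, to CpG islands. In mESCs this complex is known for its place at silent developmental genes, and KDM2A, which has the same domains, does not associate with PRC1.

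Each library held 2.01 to 2.58 M reads over promoters (M, 1000000), the median promoter having 80 to 104 reads, and the 6 libraries correlated with each other at a Pearson r of 0.954 to 0.962 across promoters. The 9 promoters of 8 mESC marker genes had a median of 123 calibrated reads, from 12.5 at an Esrrb promoter to 256 at Zfp42. They took 5.53 to 5.66 of every 10000 promoter reads in untreated cells and 5.19 to 5.55 in treated cells. Promoters of fibroblast markers were lower, with a median of 19.8 calibrated reads over 8 promoters and 79.7 at the highest, Thy1. They took 0.872 to 0.912 of every 10000 reads in untreated and 0.938 to 1.19 in treated cells. Over the least accessible promoters in general, tamoxifen replicates 1 and 3 also lay above the untreated libraries, as described below. The part of this in the fibroblast values was not tested. Primitive endoderm markers lay between, with a median of 69.3 calibrated reads over 6 promoters. Blood and liver markers had a median of 9.95 calibrated reads, and no marker was at 0 in all libraries. In bulk libraries such as these, a promoter open in fewer cells and a promoter less open in each cell cannot be told apart.

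The 5 promoters below were picked from those described here after their values were seen, and hold from 6 to 21 CpGs. They are not the 5 strongest: by p they rank from 1 (Ddx60) to 55 (Nr5a2) and 95 (Junb) among tested promoters. Whether CpG number goes with the direction of a difference was not tested on them. They are taken from RefSeq on GRCm38.p6 and run 5′ to 3′ on the gene's strand, from 250 bases before to 50 bases after the gene's start, with every CpG in capitals. The median promoter of the 32851 in the RefSeq table holds 7 CpGs in this window. Ddx60, which passed the adjusted test, lies at chr8:61927837-61928136 (plus strand) and holds 6 CpGs, and 56.4% of RefSeq promoters hold as many or more. Nr5a2 (chr1:136953581-136953880, minus strand, 7 CpGs) and Otx2 (chr14:48662685-48662984, minus strand, 11 CpGs) had less signal after tamoxifen. Txn2 (chr15:77928945-77929244, minus strand, 16 CpGs) and Junb (chr8:84978699-84978998, minus strand, 21 CpGs) had more, and their CpG numbers are met or passed by 33.0% and 24.8% of promoters.
Ddx60: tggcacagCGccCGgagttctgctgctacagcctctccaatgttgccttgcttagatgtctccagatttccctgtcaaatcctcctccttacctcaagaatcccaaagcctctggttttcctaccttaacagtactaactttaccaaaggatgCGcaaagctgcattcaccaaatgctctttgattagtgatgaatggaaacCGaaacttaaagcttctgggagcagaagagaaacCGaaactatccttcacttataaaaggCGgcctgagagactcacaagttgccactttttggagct
Txn2: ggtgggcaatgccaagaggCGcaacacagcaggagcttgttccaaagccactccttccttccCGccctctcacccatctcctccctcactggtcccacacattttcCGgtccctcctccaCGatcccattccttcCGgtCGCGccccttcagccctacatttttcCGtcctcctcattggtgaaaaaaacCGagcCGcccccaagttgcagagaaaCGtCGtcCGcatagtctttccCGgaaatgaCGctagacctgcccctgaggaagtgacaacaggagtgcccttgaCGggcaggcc
Nr5a2: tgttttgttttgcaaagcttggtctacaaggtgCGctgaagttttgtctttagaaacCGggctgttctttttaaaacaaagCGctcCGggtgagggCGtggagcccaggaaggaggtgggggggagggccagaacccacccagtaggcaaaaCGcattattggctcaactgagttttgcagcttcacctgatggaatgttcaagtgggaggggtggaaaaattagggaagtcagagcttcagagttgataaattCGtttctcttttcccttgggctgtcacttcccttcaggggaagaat
Otx2: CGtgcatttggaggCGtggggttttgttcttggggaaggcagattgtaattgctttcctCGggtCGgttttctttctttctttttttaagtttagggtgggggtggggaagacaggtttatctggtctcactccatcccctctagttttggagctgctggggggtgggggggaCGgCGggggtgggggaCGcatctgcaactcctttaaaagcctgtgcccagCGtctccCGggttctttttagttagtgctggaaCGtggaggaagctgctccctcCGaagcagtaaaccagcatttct
Junb: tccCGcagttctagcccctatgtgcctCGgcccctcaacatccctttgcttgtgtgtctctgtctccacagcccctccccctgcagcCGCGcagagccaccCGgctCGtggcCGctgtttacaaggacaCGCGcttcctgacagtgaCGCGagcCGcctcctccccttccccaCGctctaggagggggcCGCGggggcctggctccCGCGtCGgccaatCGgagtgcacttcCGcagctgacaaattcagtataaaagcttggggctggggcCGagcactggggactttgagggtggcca

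On the spike-in scale, where the mouse reads of each library are divided by its Drosophila size factor, no change of promoters as a whole could be told from the spread between libraries. Each library was set against the mean of the untreated libraries, promoter by promoter, and the median log2 ratio over promoters was taken. It was 0.37, -0.38 and -0.10 in the untreated libraries and 0.49, -0.20 and -0.10 in the treated libraries. The highest and the lowest untreated libraries were 1.68-fold apart and the treated ones 1.61-fold. Means were -0.04 ± 0.38 in untreated and 0.06 ± 0.37 in treated cells (SD, n = 3 each), a difference of 0.10 (exact two-sided permutation p = 0.6, the smallest possible being 0.1). The libraries numbered 1 were the highest and those numbered 2 the lowest in both groups, and treated minus untreated was 0.12, 0.18 and 0.006 within numbers 1, 2 and 3. Across all 6 libraries the medians ranged 1.82-fold, against 1.52-fold in Kdm2a/b-CXXC, 1.41-fold in Kdm2a-CXXC and 1.27-fold in Kdm2a/b-JmjC, the other conditional lines of the series.

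**Figure D1:**
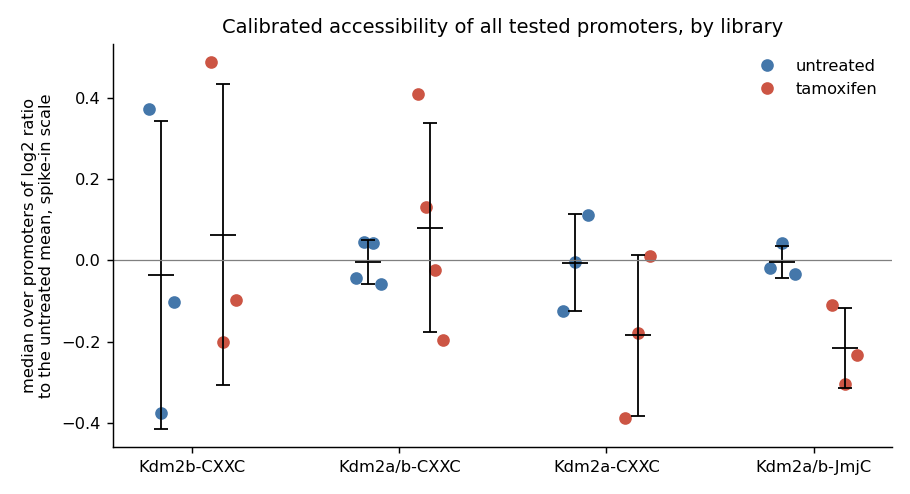
Log2 ratio of each library to the untreated mean at its median promoter, on the spike-in scale, with a point per library and bars for the mean and SD of each group, in the 4 conditional lines. In Kdm2b-CXXC the 3 treated libraries (-0.20 to 0.49) lie across the range of the 3 untreated ones (-0.38 to 0.37).

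No promoter was called on that scale at an adjusted p under 0.05 with a fold over 1.4, which is 0% of 17930, by limma, edgeR or DESeq2; 120, 107 and 104 promoters had an unadjusted p under 0.05 by these tools. With the replicate number as a block, limma called 5 promoters instead of 0, Ddx60, Txn2 and Vstm4 among them. Without the block, the 120 promoters were 93 higher (0.519%) and 27 lower (0.151%). The median promoter was higher by 0.10 on the log2 scale with a median standard error (SE) of 0.37, and 71.1% of promoters had a log2 fold change above 0. Changes of single promoters were therefore read on a relative scale, on which reads were scaled to the other promoters by TMM (trimmed mean of M values), so that the median log2 fold change was 0.00 and the median SE 0.15. This scale says how a promoter stood among the others and leaves out any shift common to them all.

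On the relative scale, the promoter of Ddx60 was less accessible after tamoxifen and was the only promoter called (1 of 17930, 0.00558%). Ddx60 encodes an RNA helicase of the antiviral response. Its interval (NM_001293783, chr8:61927887-61928286, mm10) has 50.2% GC and a CpG frequency 0.598 times that expected from its bases, just under the limit of 0.6 set here for a CpG-rich promoter. Relative reads were 88.7, 123 and 134 in untreated and 48.9, 57.2 and 74.5 in treated cells, and the groups did not overlap. The log2 fold change was -0.92 ± 0.18 (SE, n = 3 each; limma, adjusted p = 0.0187). Calibrated reads, on the spike-in scale, were 110, 89.9 and 119 in untreated against 65.5, 47.3 and 66.1 in treated cells, again without overlap. It was not called when untreated replicate 2 (-0.87, limma adjusted p = 0.122), untreated replicate 3 (-0.81, adjusted p = 0.334) or tamoxifen replicate 1 (-0.79, adjusted p = 0.146) was left out, nor by DESeq2 (adjusted p = 0.257).

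Beyond Ddx60, 646 promoters (3.60%) were higher and 742 (4.14%, Ddx60 among them) were lower at an unadjusted p under 0.05. They are referred to below as nominally higher or lower; apart from Ddx60 they did not pass adjustment, and the smallest adjusted p among them was 0.0914. The names that follow were picked as extremes by a rule on these values, and describe the ends of the distribution. For the promoters strongest by p, that rule also required groups that did not overlap, so their lack of overlap is not separate support. For other promoters, lack of overlap describes only the promoter named. The share of all tested promoters without overlap is not given here. List members that differed nominally are named beside their counts, after their values were seen. The counts of each list stand beside shares of 3.60% higher and 4.14% lower over all tested promoters, and no list was tested against them.

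Among the nominally higher promoters, Txn2, Vstm4, 2700046A07Rik and Acp5 were among the strongest by p. Txn2, which encodes mitochondrial thioredoxin, had 223, 282 and 251 relative reads in untreated and 318, 397 and 308 in treated cells, without overlap (log2 fold change 0.43 ± 0.10 SE; limma adjusted p = 0.0914). Vstm4, a membrane protein with immunoglobulin-like domains, had 46.7, 40.7 and 41.6 against 81.2, 90.6 and 69.9 relative reads, and every treated library was above every untreated one (0.88 ± 0.21; limma adjusted p = 0.0969). Acp5, an acid phosphatase best known from osteoclasts, had few reads and a large ratio, 27.1, 16.5 and 14.9 against 30.2, 46.5 and 60.7 (1.18 ± 0.31), and the noncoding gene 2700046A07Rik likewise had 18.7, 15.5 and 36.7 against 52.0, 59.6 and 41.4 (1.16 ± 0.28).

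Among the nominally lower promoters, those strongest by p after Ddx60 were Zfp572, Olfml1, Uty, Gm973 and Rgs9. The zinc finger gene Zfp572 had 121, 130 and 97.1 relative reads in untreated cells and 65.6, 66.7 and 67.1 in treated cells, where the 3 libraries lay close together (log2 fold change -0.79 ± 0.17; limma adjusted p = 0.0914). Olfml1, an olfactomedin-like secreted protein, had 57.0, 70.7 and 62.4 against 31.2, 23.8 and 34.02, also without overlap (-1.08 ± 0.25; limma adjusted p = 0.0914). Rgs9, a regulator of G protein signalling, had more reads and a smaller difference, 312, 294 and 311 against 233, 212 and 235 (-0.43 ± 0.10; limma adjusted p = 0.10). Uty, a Y-linked gene, had 139, 104 and 89.2 against 76.0, 51.2 and 61.6 (-0.80 ± 0.18), and Gm973 had 121, 139 and 143 against 83.2, 75.1 and 93.8 (-0.67 ± 0.16). The copy number of chromosome Y in these cells was not examined here, and Uty was not among the promoters tested in Kdm2a-CXXC, another line of the series.

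**Figure D2:**
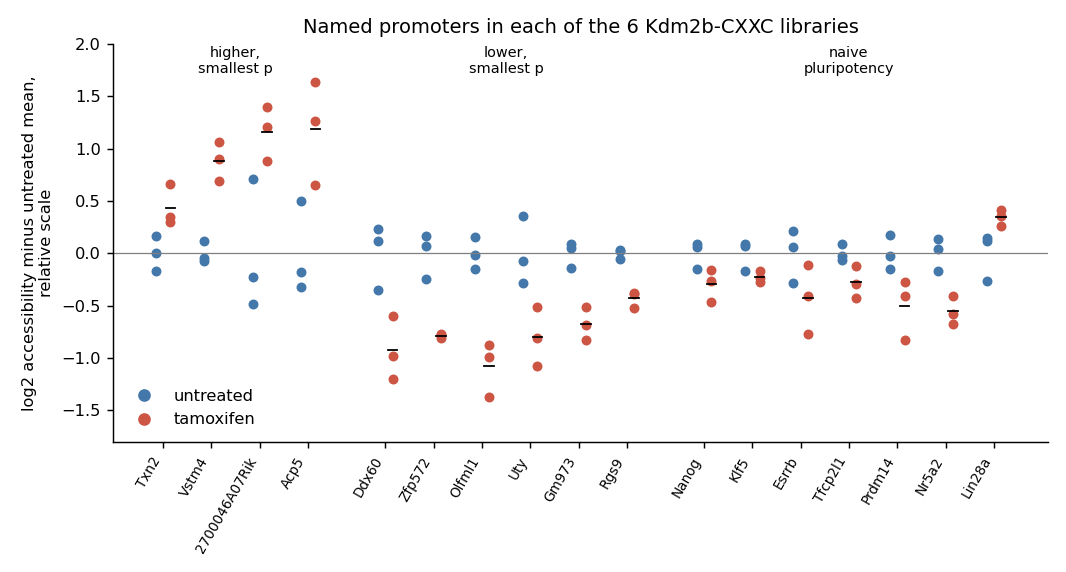
Log2 relative accessibility of each library minus the mean of the untreated libraries, for promoters with the smallest p in each direction (4 higher, 6 lower) and for the naive pluripotency promoters with an unadjusted p under 0.05, with blue untreated points, red treated points and dashes for treated means. In the first 10 every treated library lies beyond every untreated library, as the rule that picked them required; Ddx60 fell by 0.92 on the log2 scale between group means.

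The promoters of Kdm2b itself showed no difference beyond the spread. The interval NM_013910 had 255, 215 and 238 relative reads in untreated and 219, 205 and 219 in treated cells (log2 fold change -0.14 ± 0.11), and the interval NM_001003953 had 63.5, 53.3 and 61.5 against 51.0, 48.9 and 48.7 (-0.25 ± 0.22). At NM_001003953 the groups did not overlap, but the SE is nearly as large as the difference. Kdm2a, the paralogue that these cells retain, had 166, 187 and 187 against 158, 185 and 171 (-0.07 ± 0.13), and its sign turned on the spike-in scale (0.03). Fbxl20, which lies at 0.13 ± 0.11, and Fosl2, at 0.17 ± 0.20, also did not pass the test.

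At the genes of the complex that KDM2B recruits, differences were small. Of the 12 tested promoters of the KDM2B-PCGF1 complex, none was nominally higher and 1 was nominally lower, with a median log2 fold change of -0.06 and a range of -0.26 to 0.35, beside a median of 0.00 over all promoters. The lower promoter was that of Rybp, a PRC1 subunit that stimulates the ubiquitin ligase, with 227, 176 and 214 relative reads against 174, 174 and 165 (-0.26 ± 0.12, limma adjusted p = 0.615). Among 17 promoters of other PRC1 components, 1 was nominally higher and none lower, with a median of 0.04. None of 11 promoters of PRC2, which methylates histone H3 at lysine 27, was nominally higher or lower, and their median was -0.04. Among 13 promoters of ZF-CxxC proteins, the 1 nominally higher promoter was that of Tet1 (1.20 ± 0.53), a gene whose listed interval had only 11.02 calibrated reads on average, and none of 10 promoters of H3K36 methylation enzymes differed nominally.

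Of 23 tested promoters of 21 genes linked to the naive pluripotency of mESCs, 6 were nominally lower (26.1%, against 4.14% of all tested promoters) and 1 was nominally higher. Whether this list differs from other promoters was not tested. The median of the list was -0.07, with 15 members below 0. Nr5a2, a nuclear receptor that activates Pou5f1, had 123, 107 and 132 relative reads in untreated and 90.5, 75.1 and 80.0 in treated cells, without overlap (log2 fold change -0.55 ± 0.16; limma adjusted p = 0.309). Prdm14, which keeps mESCs in the naive state, had 137, 119 and 109 against 99.9, 67.9 and 91.0 (-0.50 ± 0.16), and all treated libraries again lay below all untreated ones. Klf5, a factor of the pluripotency network, had 396, 336 and 401 against 311, 321 and 336 (-0.22 ± 0.09). Tfcp2l1, a target of the leukaemia inhibitory factor pathway, had 222, 216 and 240 against 208, 185 and 168 (-0.28 ± 0.12).

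Nanog, a core pluripotency factor, was also in this group with 125, 147 and 145 relative reads against 115, 100 and 124 (-0.30 ± 0.15). At the Esrrb interval NM_011934 the groups overlapped, 78.5, 70.7 and 55.5 against 62.4, 39.3 and 50.6 (-0.43 ± 0.21). The other Esrrb interval, NM_001159500, did not fall. It had few calibrated reads, 11.5, 2.83 and 16.7 in untreated and 19.5, 8.87 and 15.5 in treated cells. Lin28a, an RNA-binding protein that blocks let-7 processing, was the nominally higher member, with 118, 115 and 88.2 against 136, 142 and 128 (0.35 ± 0.15). The other core factors did not follow: Pou5f1 had 109, 114 and 105 against 133, 102 and 126 (0.13 ± 0.15) and Sox2 had 228, 241 and 292 against 240.4, 259 and 251 (-0.01 ± 0.11). The number of nominally lower members was 3 to 5 when a single library was left out (3 without untreated replicate 3) and 4 by edgeR or DESeq2.

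The 20 tested promoters of formative and primed state genes held 1 nominally lower member, an Otx2 promoter, and 1 higher, Etv4, with a list median of -0.09. Otx2, a homeodomain factor that drives the exit from naive pluripotency, had 98.1, 92.0 and 102 relative reads in untreated and 62.4, 53.6 and 65.3 in treated cells at NM_144841 (chr14:48662673-48663072), where all treated libraries were below the untreated ones (log2 fold change -0.68 ± 0.19; limma adjusted p = 0.198). The other Otx2 intervals lay at -0.14 ± 0.21 and -0.02 ± 0.34. Etv4, an ETS factor downstream of FGF signalling, had 328, 333 and 327 against 387, 385 and 397 (0.24 ± 0.09), a small difference in which the libraries of each group lay close together.

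Immediate early genes, which respond within minutes to growth factors and stress, had a median of 0.07 over 26 tested promoters. Of these, 3 were nominally higher (11.5%, against 3.60% of all tested promoters) and 2 nominally lower (7.69%, against 4.14%). Whether this list differs from other promoters was not tested. The higher ones encode subunits of the AP-1 factor. Fosl1 had 112, 94.9 and 109 relative reads against 169, 164 and 118 (log2 fold change 0.49 ± 0.15; limma adjusted p = 0.309), Junb had 115, 134 and 153 against 202, 169 and 166 (0.42 ± 0.13), and Jund had 16.8, 30.0 and 21.8 against 28.1, 39.3 and 38.6 (0.63 ± 0.31), where the groups overlapped. The groups of Fosl1 and Junb did not overlap. The lower members were the transcription factor gene Klf10 (-0.22 ± 0.10) and Ier5 (-0.23 ± 0.11), with 243, 234 and 235 against 212, 195 and 198 at Ier5. With a library left out, 2 to 4 members were nominally higher and 0 to 2 nominally lower, the latter 0 without untreated replicate 3.

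Developmental regulators are the genes at which the PCGF1 form of PRC1 is best known to act. Of 41 tested Hox promoters, 2 were nominally higher, Hoxa4 (0.58 ± 0.29) and Hoxa6 (0.47 ± 0.24), and 1 was lower, Hoxb6 (-0.38 ± 0.18, and -0.12 without tamoxifen replicate 1). Relative reads at Hoxa6 were 35.5, 35.8 and 48.6 against 49.9, 63.1 and 53.3, without overlap, while those at Hoxb6 were 93.4, 136 and 95.1 against 56.2, 91.7 and 105 and overlapped. The Hox median was 0.11. None of 46 other developmental homeobox promoters was nominally higher or lower, and their median was -0.03. Wnt5b (-0.35 ± 0.16) and Wnt5a (-0.55 ± 0.26), ligands of non-canonical Wnt signalling, were the 2 nominally lower promoters of 35 for Wnt ligands and receptors; Wnt5b had 110.2, 124 and 131 against 97.8, 85.8 and 101, without overlap. No promoter of 28 in the TGF-beta, BMP and Nodal pathway, of 19 for primitive endoderm or of 18 for primitive streak and mesoderm was nominally higher or lower, with medians of 0.01, 0.02 and -0.10. The neural factor Nkx2-2 was nominally higher (15.9, 24.2 and 27.8 against 31.2, 42.9 and 35.9; 0.70 ± 0.31) among 26 neural transcription factor promoters, and Dlx3 was nominally lower (-0.30 ± 0.15) among 12 trophoblast promoters.

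Germline, interferon, p53 and imprinted genes had at most 2 members in either direction. Among 24 germline promoters, Sycp1 was nominally higher (0.55 ± 0.26) and Sycp3 nominally lower (-0.46 ± 0.21, and -0.10 without tamoxifen replicate 2); both encode parts of the synaptonemal complex of meiosis. The 30 promoters of the interferon response and viral sensors included Ddx60, Rsad2, an antiviral enzyme (-0.58 ± 0.29), and Stat2, a transducer of the interferon signal (182, 189 and 218 against 265, 218 and 228; 0.27 ± 0.11), with a list median of -0.02. Rsad2 had 34.6, 35.8 and 54.5 relative reads against 31.2, 41.7 and 14.7, and the groups overlapped. Cdkn1b, a brake on the cell cycle, was nominally lower (307, 307 and 322 against 243, 270.5 and 270.3; -0.26 ± 0.10) and Ccng1 nominally higher (0.21 ± 0.08) among 26 promoters of p53 targets and CDK inhibitors. 4-hydroxytamoxifen is a ligand of the oestrogen receptors, and none of 15 promoters of these receptors and their targets was nominally higher or lower, with a median of -0.12. Among 46 promoters of imprinted genes, Zdbf2 (0.40 ± 0.15, and 0.24 without tamoxifen replicate 2) and Kcnq1 (0.43 ± 0.20) were nominally higher, and Ndn (-0.36 ± 0.15) and Zim1 (-0.27 ± 0.12) nominally lower.

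Promoters of housekeeping genes had list medians within 0.03 of 0. Of 60 for RNA polymerase II initiation and pausing, 3 were nominally higher and 2 nominally lower, with a median of 0.01. The higher ones included Taf5, a TFIID subunit (163, 227 and 152 against 263, 238 and 193; 0.37 ± 0.12) and Supt5, part of the pausing factor DSIF (0.19 ± 0.09). Lower were Aff4, a scaffold of the super elongation complex (326, 321 and 300.3 against 276, 249 and 257; -0.28 ± 0.10), and Larp7, which holds P-TEFb inactive (-0.23 ± 0.10). The 74 ribosomal protein promoters had a median of -0.02 and held Rpl13a, nominally higher (312, 349 and 329 against 392, 417 and 433; 0.33 ± 0.09), and Rpl6, nominally lower (128, 141 and 155 against 95.7, 95.3 and 102; -0.52 ± 0.15). For both, the groups did not overlap, in opposite directions.

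Of 81 promoters of oxidative phosphorylation genes, 3 were nominally higher, Cox6c (0.66 ± 0.24), Ndufb8 (0.35 ± 0.15) and Cox6b2 (0.26 ± 0.13), and 2 were lower, Atp5a1 (-0.23 ± 0.12) and Ndufa9 (-0.36 ± 0.17), with a median of 0.00. Among 8 replication-dependent histone promoters, H4c14 was nominally lower (-0.25 ± 0.12). The 300 tested promoters of zinc finger genes named Zfp, many of which encode KRAB repressors, had a median of -0.01. Of them, 7 were nominally higher (2.33%) and 16 nominally lower (5.33%), beside 3.60% and 4.14% of all tested promoters.

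**Figure D3:**
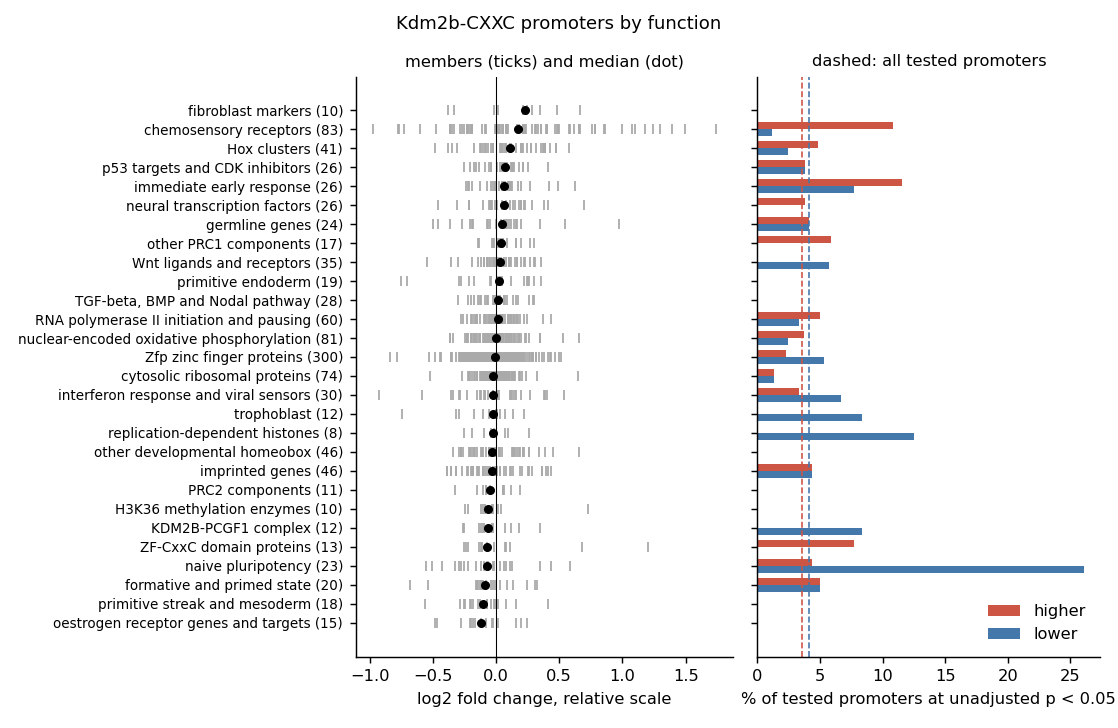
Relative log2 fold change of each tested promoter (ticks) and the median (dot) of 28 gene lists, with the number tested in brackets, and beside them the percentage of each list with an unadjusted p under 0.05 in either direction (dashed lines, all tested promoters). The naive pluripotency list has 6 nominally lower members of 23 and a median of -0.07. The chemosensory list has 9 nominally higher members of 83 and a median of 0.17. These 83 of 547 listed promoters passed the read filter and so were partly picked by their values.

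Chemosensory receptor genes, which are silent in mESCs, served as a list of closed promoters. Of 547 listed, 83 had enough reads to be tested, with 9 nominally higher (10.8%) and 1 nominally lower (1.20%). Over all tested promoters these shares were 3.60% and 4.14%. The median of the 83 was 0.17 on the relative scale, at a median level of 10.96 calibrated reads against 6.03 over all 547. The filter keeps near closed promoters with enough reads in 3 libraries, so the 83 were partly picked by their values. Whether this list differs from other promoters was not tested. All 547 promoters together took 0.144%, 0.141% and 0.141% of promoter reads in the untreated libraries and 0.179%, 0.147% and 0.163% in the treated ones, without overlap but with tamoxifen replicate 2 nearest to untreated cells. The largest by p with enough reads was Olfr222, with 19.6, 15.5 and 12.9 relative reads against 31.2, 22.6 and 30.3 (0.78 ± 0.35). The number of nominally higher receptors dropped to 2 without tamoxifen replicate 3 and to 5 without untreated replicate 2 or untreated replicate 3. Fibroblast marker promoters, at a median of 34.8 calibrated reads over 10 tested promoters, had a median of 0.23 with none nominally higher or lower. Among them, Col1a1 had 14.9, 19.4 and 19.8 against 30.2, 23.8 and 34.02 (0.67 ± 0.34). The 6 blood and liver promoters had a median of 0.06.

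Treated libraries also stood apart from each other over the least accessible promoters. Over the 3586 tested promoters with the lowest signal, the median log2 ratio to the mean of the 6 libraries on the relative scale was -0.05, -0.05 and -0.06 in the untreated libraries and 0.08, -0.07 and 0.09 in the treated ones. Tamoxifen replicates 1 and 3 lay above and tamoxifen replicate 2 below the untreated libraries, and the part of these differences in the values of the chemosensory and fibroblast lists was not tested.

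CpG-rich promoters, with GC at 0.5 or more and observed over expected CpG at 0.6 or more, showed no difference from the other promoters beyond the spread between libraries. The median log2 ratio to the untreated mean over 11258 tested CpG-rich promoters, minus that over 6672 others, was 0.02, -0.01 and -0.01 in the untreated libraries and -0.02, 0.03 and -0.09 in the treated libraries. The difference between the groups was -0.03 (exact two-sided permutation p = 0.6, n = 3 each), smaller than the SD of 0.06 among treated libraries.

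**Figure D4:**
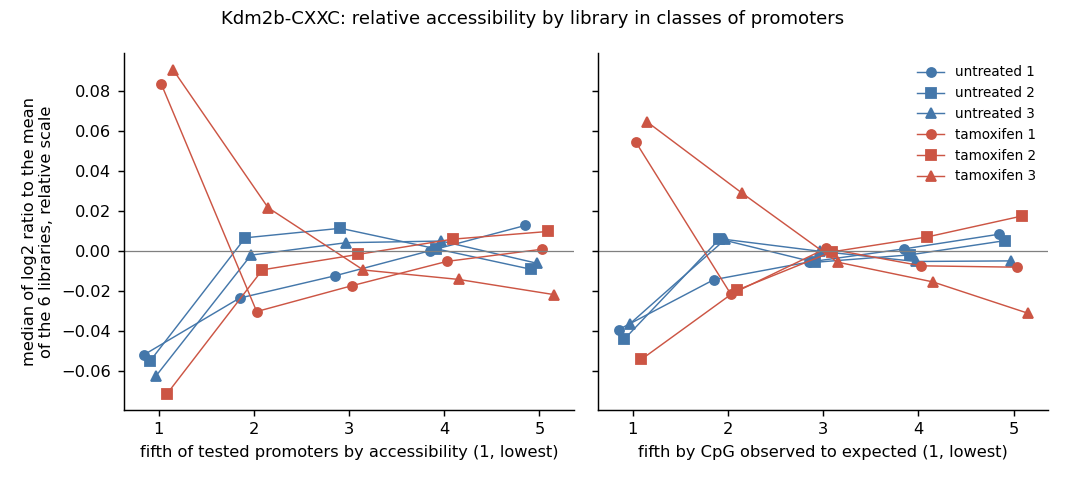
Median log2 ratio to the mean of the 6 libraries on the relative scale, a point per library, in 5 classes of tested promoters of about equal size by accessibility and by observed to expected CpG ratio. In the least accessible class tamoxifen replicates 1 and 3 (0.08 and 0.09) lie above the untreated libraries and tamoxifen replicate 2 (-0.07) below them, and the class with the lowest CpG ratio has the same order.

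Promoters that differed nominally here were then looked up in the other conditional lines, each of which has its own untreated libraries, so that no control is shared. The Kdm2a/b-CXXC line, which loses both ZF-CxxC domains, was made from the Kdm2b-CXXC line. Kdm2a-CXXC loses the KDM2A domain alone. Kdm2a/b-JmjC loses the long forms of both proteins, which carry the JmjC domain, and keeps the short forms, which have the ZF-CxxC domain. Across promoters the relative log2 fold changes of Kdm2b-CXXC correlated with those of Kdm2a/b-CXXC at a Pearson r of 0.199 (Spearman rho 0.199, 16362 promoters), with those of Kdm2a-CXXC at 0.072 (rho 0.058, 17150 promoters) and with those of Kdm2a/b-JmjC at 0.046 (rho 0.050, 16861 promoters). These are descriptions across promoters, which are not independent and share base composition and level. Kdm2a/b-CXXC has 4 untreated and 4 treated libraries, and the other lines have 3 of each. The part of these library numbers in the correlations and in the counts below was not tested. Nor was the difference between the lines. With any 1 of the 6 libraries left out the r was 0.175 to 0.191, 0.045 to 0.092 and 0.030 to 0.059, and among promoters with a mean of at least 100 calibrated reads it was 0.228, 0.035 and 0.046.

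Promoters with a nominal difference here were counted again in the line that lost both domains. Of 714 nominally lower promoters tested in both, 96 (13.4%) were nominally lower in Kdm2a/b-CXXC, where 4.97% of all promoters were, and 9 (1.26%) were nominally higher. The 96 promoters are 11.8% of those nominally lower in that line. Of 572 nominally higher promoters, 68 (11.9%) were nominally higher there, where 4.75% of all promoters were, and 13 were lower; the 68 are 8.75% of those nominally higher in Kdm2a/b-CXXC. In Kdm2a-CXXC, 42 of 728 lower promoters (5.77%, background 3.32%) and 15 of 603 higher promoters (2.49%, background 2.86%) had the same nominal direction. In Kdm2a/b-JmjC these were 25 of 726 (3.44%, background 2.91%) and 23 of 592 (3.89%, background 2.73%). With a library of Kdm2b-CXXC left out, 12.7% to 14.2% of lower and 10.5% to 14.2% of higher promoters met their direction again in Kdm2a/b-CXXC.

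**Figure D5:**
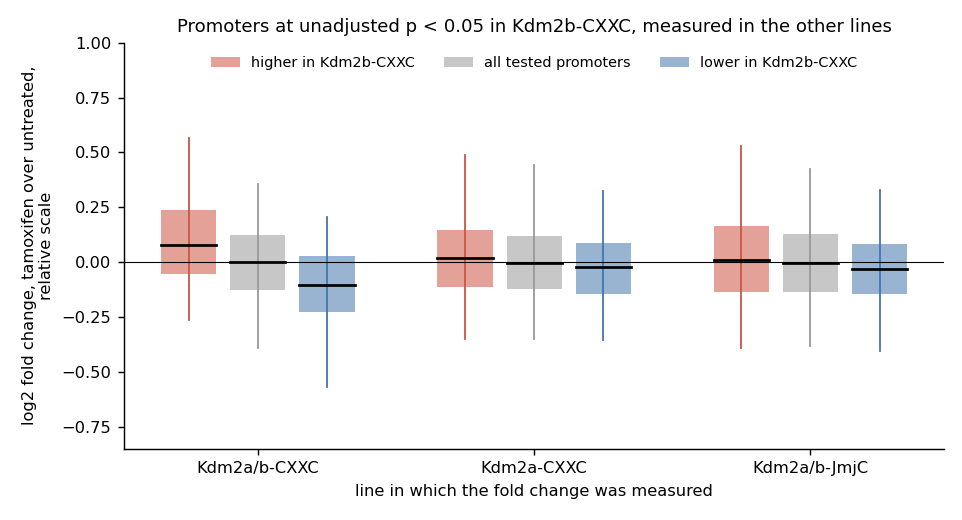
Relative log2 fold change, tamoxifen over untreated, in the other 3 lines, for promoters nominally higher or lower in Kdm2b-CXXC and for all tested promoters (black line, median; box, quartiles; thin line, 5th to 95th percentile). The sets lie apart in Kdm2a/b-CXXC (medians 0.08 and -0.11) and nearer to all promoters in Kdm2a-CXXC and Kdm2a/b-JmjC.

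Several promoters named above were among those shared with Kdm2a/b-CXXC. Ddx60 had a relative log2 fold change of -0.65 ± 0.20 there (limma, adjusted p = 0.182). It had -0.29 ± 0.25 in Kdm2a-CXXC and -0.41 ± 0.20 in Kdm2a/b-JmjC (limma, unadjusted p = 0.0425). Ddx60 was thus nominally lower in Kdm2a/b-JmjC as well, and lay below 0 in every line. Otx2 had -1.06 ± 0.23 in Kdm2a/b-CXXC, which passed adjustment (limma adjusted p = 0.0189), but -0.01 ± 0.20 in Kdm2a-CXXC and 0.03 ± 0.26 in Kdm2a/b-JmjC. Prdm14 (-0.76 ± 0.19), Nanog (-0.58 ± 0.15) and Tfcp2l1 (-0.30 ± 0.13) were nominally lower in Kdm2a/b-CXXC as well, while Nr5a2 (-0.21 ± 0.18), Esrrb (-0.28 ± 0.22) and Klf5 (-0.10 ± 0.10) were not. In Kdm2a-CXXC the same promoters lay at 0.09 for Prdm14, 0.01 for Nanog, -0.03 for Tfcp2l1, -0.07 for Nr5a2 and 0.21 for Esrrb.

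On the higher side, Fosl1 (0.38 ± 0.15), Junb (0.42 ± 0.15), Ccng1 (0.22 ± 0.09) and Olfr222 (0.82 ± 0.31) were nominally higher in Kdm2a/b-CXXC, and Txn2 (0.16 ± 0.10) and Vstm4 (0.30 ± 0.20) were not. In Kdm2a-CXXC, Fosl1 (-0.36 ± 0.16) and Junb (-0.26 ± 0.17) lay on the other side of 0. Other named promoters had values near 0 in Kdm2a/b-CXXC, the line that lost both domains. Rpl6 (0.10 ± 0.16), Zfp572 (-0.15 ± 0.19), Rgs9 (0.03 ± 0.11) and Rpl13a (0.05 ± 0.08) differed by less than their SE in that line. Pou5f1, which did not differ here, had a relative log2 fold change of -0.46 ± 0.18 in Kdm2a/b-CXXC and of -0.53 ± 0.20 in Kdm2a-CXXC, nominally lower in both.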

How the data were processed

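Promoter accessibility was measured by cATAC-seq on a NextSeq 500 (paired-end). Following the study's methods, the authors aligned reads with Bowtie 2 to mm10 joined to dm6, removed multi-mapping, duplicate and mitochondrial reads, and counted mouse reads over promoters. The deposited values of a library are a signal: reads divided by a spike-in size factor corrected with genomic DNA, and 100% of values gave whole reads back (within 0.001). The mean, fold change, error, statistic and p columns of the authors' own DESeq2 comparison were not used, and the genomic DNA libraries were not analysed here.

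Of the promoters, 17930 of 20633 passed filterByExpr on recovered reads. The main test was limma (3.58.1) with a mean-variance trend on log2(value + 1), a scale that understates changes at low values, with Benjamini-Hochberg adjustment (called at an adjusted p under 0.05 if the fold exceeded 1.4). It was run on spike-in values and on TMM-scaled reads (edgeR 4.0.16). DESeq2 (1.42.0) and edgeR tests on recovered reads, other filters, pseudocounts and scalings, and leaving out each library were alternatives; those of the list counts and of the comparison with other lines were chosen after seeing the data. Library medians were compared by exact permutation tests. With 80 to 104 reads at the median promoter, low promoters carry a wide counting error. The fits were tested on simulated data.

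The 29 gene lists and the libraries were chosen with earlier results of these data known. Promoters were named as the targeted genes and cell type checks, those called, the 6 with the smallest p in each direction whose groups did not overlap, and the member with the smallest p of each list, with a mean of at least 20 calibrated reads for the last 2 kinds. Of the listed entries, 20 were not analysed here. Some promoters that this rule names are not reported here.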

Additional observations from a re-analysis of the deposited data

Results flagged for a closer look

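At 4 promoters every treated library lay on the opposite side of its untreated mean in another line; these differences were not tested. Kdm2b (NM_001003953) had a relative log2 fold change of -0.25 here and 0.51 in Kdm2a-CXXC. Gm973 had -0.67 here and 0.34 in Kdm2a-CXXC. Fosl1 had 0.49 here and -0.36 in Kdm2a-CXXC. Col1a1, a near closed promoter, had 0.67 here and -0.93 in Kdm2a/b-JmjC.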

How the results depend on the processing

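With 3 libraries per group, a 1.82-fold range of calibration and a median SE of 0.37, the spike-in scale could not show a shift of promoters of the size seen. That shift was -0.11 to 0.30 with a library left out and turned sign without untreated replicate 2 (-0.07) or tamoxifen replicate 1 (-0.11). The CpG difference was -0.0529 to 0.00501 with a library left out, turning sign without tamoxifen replicate 3 (0.00501). On the spike-in scale, 0 promoters were called with any library left out. On the relative scale the calls were 0 to 5 with a library left out: 0 without tamoxifen replicate 1, 2 without untreated replicate 2, 4 without untreated replicate 3 and 5 without tamoxifen replicate 3. By DESeq2 it was 0, with 439 higher and 487 lower at an unadjusted p under 0.05. Kdm2a turned sign on the spike-in scale (0.0259), as did Sox2 on that scale (0.0850), without untreated replicate 3 (0.0916, with -0.0875 as the lowest value with a library left out) and without tamoxifen replicate 1 (0.01). Of 736 alternative values for 46 named promoters, 721 held their direction and side of the threshold.

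Across promoters, same-numbered libraries of the groups did not deviate together (correlations of -0.009 to 0.006 on the spike-in scale and -0.004 to 0.014 on the relative scale), but these leave out an offset common to a library, and the library medians on the spike-in scale did follow the numbers. Whether the numbers pair the samples is therefore not settled, and no label says that they do. A fit with the replicate number as a block called 5 promoters on the spike-in scale (Txn2, Vstm4, Ddx60, 1700020L24Rik and 2700046A07Rik; 1594 higher and 191 lower at an unadjusted p under 0.05) and 1 on the relative scale. With the block the shift was 0.10 (exact sign-flip p = 0.25, the smallest possible) and the CpG difference -0.03 (exact sign-flip p = 0.75).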

Other observations

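Promoters on chromosomes X, 6 and 11 had small differences without overlap between groups on the relative scale. The 536 tested promoters on chromosome X had a median log2 ratio to the mean of the 6 libraries of 0.05, 0.01 and 0.01 in untreated and -0.07, -0.05 and 0.004 in treated libraries. The 922 on chromosome 6 had 0.02, 0.01 and 0.02 in untreated and -0.03, -0.04 and -0.0007 in treated libraries. The 1576 on chromosome 11 had -0.03, -0.01 and -0.02 in untreated and 0.02, 0.03 and 0.002 in treated libraries. In all, 6 of 20 chromosomes had groups that did not overlap, with differences of at most 0.06.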
